A study of Mus musculus with 20 samples.

Results

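Type I interferon-induced antiviral genes were followed in the livers of mice fed a diet that provokes steatohepatitis. The list holds 39 genes picked by function, with earlier results of these data known. Interferons are known to switch these genes on, and most of them hinder viral replication. Of these, 35 were measured by a probe set that names a single gene, among 22180 such genes on the array. The other 4 have no value here. Oas1a shares its only probe set with Oas1g, Dtx3l with Parp9 and Ifi47 with an olfactory receptor gene, and no probe set used here named Ifi44.

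The livers came from 20 adult males bred on C57BL/6 x CBA, 10 WT and 10 Bnc2 heterozygous. The heterozygous mice carry 1 copy of Bnc2, which encodes a zinc finger protein of myofibroblasts, disrupted in the germline by a gene trap, and the WT mice were their littermates. For 7.5 weeks every mouse ate a CDAA-HFSC diet, a choline-deficient and amino acid-defined food with added fat, sucrose and cholesterol. RNA from the superior right lobe of each liver was read on its own MoGene-2.0-st array. Values are on the log2 scale, so that a difference of 1 is a doubling. Livers of mice on chow were not analysed here, so no comparison speaks to the diet.

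Type I interferons bind the receptor formed by Ifnar1 and Ifnar2, which activates the kinases Jak1 and Tyk2. Phosphorylated Stat2 then joins Irf9 in a complex that binds the interferon-stimulated response element (ISRE) in promoters. Interferon gamma has a receptor of its own and acts through another element, the gamma-activated site (GAS), and Irf1 is a classical target of that route. Irf7, itself induced by interferon, raises further type I interferon production. In liver, Kupffer cells, other immune cells and hepatocytes can all respond.

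Promoter windows of 300 bases, 250 before and 50 after the annotated start, were read from RefSeq for the GRCm38.p6 assembly to show how members differ in these elements. They were found for 30 of the 39 genes in 38 windows. The ISRE core GAAANNGAAA, sought on both strands, occurred in 15 of the 38 windows (39.5%) and in 3.44% of all 32851 windows. The GAS core TTCNNNGAA, which reads the same on both strands, occurred in 8 of the 38 windows (21.1%) and in 8.30% of all windows. In the Bst2 window the GAS core overlaps an ISRE core. These are matches of letters and not sites shown to be bound.

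The 4 windows printed next are an effector with overlapping ISRE cores, an effector with separate ones, a regulator with a GAS core and a regulator with no ISRE core, each from 5′ to 3′ with the matched core in capitals. Isg15 lies at chr4:156200769-156201068 on the minus strand, Ifit1 at chr19:34640639-34640938 on the plus strand, Irf1 at chr11:53769764-53770063 on the plus strand and Irf7 at chr7:141266375-141266674 on the minus strand.
Isg15: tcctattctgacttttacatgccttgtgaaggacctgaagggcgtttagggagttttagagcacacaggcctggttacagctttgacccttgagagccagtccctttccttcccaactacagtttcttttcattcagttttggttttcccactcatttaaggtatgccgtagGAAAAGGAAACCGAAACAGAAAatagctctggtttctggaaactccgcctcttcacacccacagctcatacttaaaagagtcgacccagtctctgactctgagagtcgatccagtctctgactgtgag
Ifit1: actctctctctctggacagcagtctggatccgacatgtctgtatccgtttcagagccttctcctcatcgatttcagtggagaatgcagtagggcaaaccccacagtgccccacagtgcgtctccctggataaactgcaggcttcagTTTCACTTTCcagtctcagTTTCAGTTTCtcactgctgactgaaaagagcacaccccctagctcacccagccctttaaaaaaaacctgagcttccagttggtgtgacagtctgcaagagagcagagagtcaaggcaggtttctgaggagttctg
Irf1: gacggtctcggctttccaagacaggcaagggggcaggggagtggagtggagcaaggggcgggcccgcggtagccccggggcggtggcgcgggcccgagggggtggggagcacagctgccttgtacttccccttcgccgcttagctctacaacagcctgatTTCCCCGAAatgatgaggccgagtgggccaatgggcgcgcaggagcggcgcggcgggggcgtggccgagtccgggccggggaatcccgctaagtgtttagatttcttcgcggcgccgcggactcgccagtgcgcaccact
Irf7: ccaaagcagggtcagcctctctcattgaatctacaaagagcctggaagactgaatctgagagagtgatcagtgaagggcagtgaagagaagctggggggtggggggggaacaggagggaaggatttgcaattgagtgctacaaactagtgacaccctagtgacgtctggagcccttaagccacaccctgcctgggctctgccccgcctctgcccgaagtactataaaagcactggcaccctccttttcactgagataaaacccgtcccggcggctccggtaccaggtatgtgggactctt
In Isg15 the 3 ISRE cores begin 78, 72 and 66 bases before the start and overlap by their GAAA ends. In Ifit1 the 2 cores lie on the opposite strand, and their first bases come 104 and 85 bases before the start. The GAS core of Irf1 begins 90 bases before the start, and this window holds no ISRE core. The Irf7 window holds neither core. The annotated Irf7 gene reaches chr7:141266499, which on the minus strand lies upstream of the start this window uses. Bases upstream of the window were not read.

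Array medians ran from 6.62 to 6.71, and arrays correlated over genes at 0.987 to 0.994. WT 4, WT 6, heterozygous 9 and heterozygous 10 had the smallest spread of values over genes. The hepatocyte marker list averaged from 18.24 to 18.35 in WT and from 18.24 to 18.38 in heterozygous livers, near the top of the scale. Bnc2 averaged 5.37 ± 0.25 in the WT group and 5.41 ± 0.13 in the heterozygous group (SD, n = 10 each), so its array value does not check the genotype labels. By RT-qPCR, the paper reported less Bnc2 in livers of heterozygous mice. For scale, 95% of olfactory receptor genes, which liver is not known to use, lay under 6.99. Bnc2 averaged below that, and of the measured members so did Mx1 and Oas3. The number of arrays limits the precision.

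No member passed the test between genotypes. With limma, 0 of 35 members had an adjusted p under 0.05, as did 0 of all 22180 genes (0%), and the smallest adjusted p was 0.446. The members still leaned one way. The heterozygous mean lay below the WT mean for 30 of 35, beside 49.0% of all genes, and the median difference over members was -0.14 beside 0.003 over all genes. At an unadjusted p under 0.05, 5 members were lower in heterozygous livers and 0 higher, beside 3.63% and 2.78% of all genes. With arrays centred on their medians, the split over all genes turned from 806 lower and 616 higher to 627 lower and 836 higher, and 4 members were lower and 0 higher. Without the 4 arrays of smallest spread, 22 members had a lower mean, 2 (Apobec3 and Parp9) were lower at that p, and the median difference was -0.05. The differences of 21 members shrank by over 1.5 times or changed sign without those arrays, and those of Apobec3, Parp9, Irf1, Zbp1 and Irf8 did not. The members move together across mice, so these counts are not those of independent genes. The list was also chosen with earlier results of these data known, so its lean is a description.

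**Figure D1:**
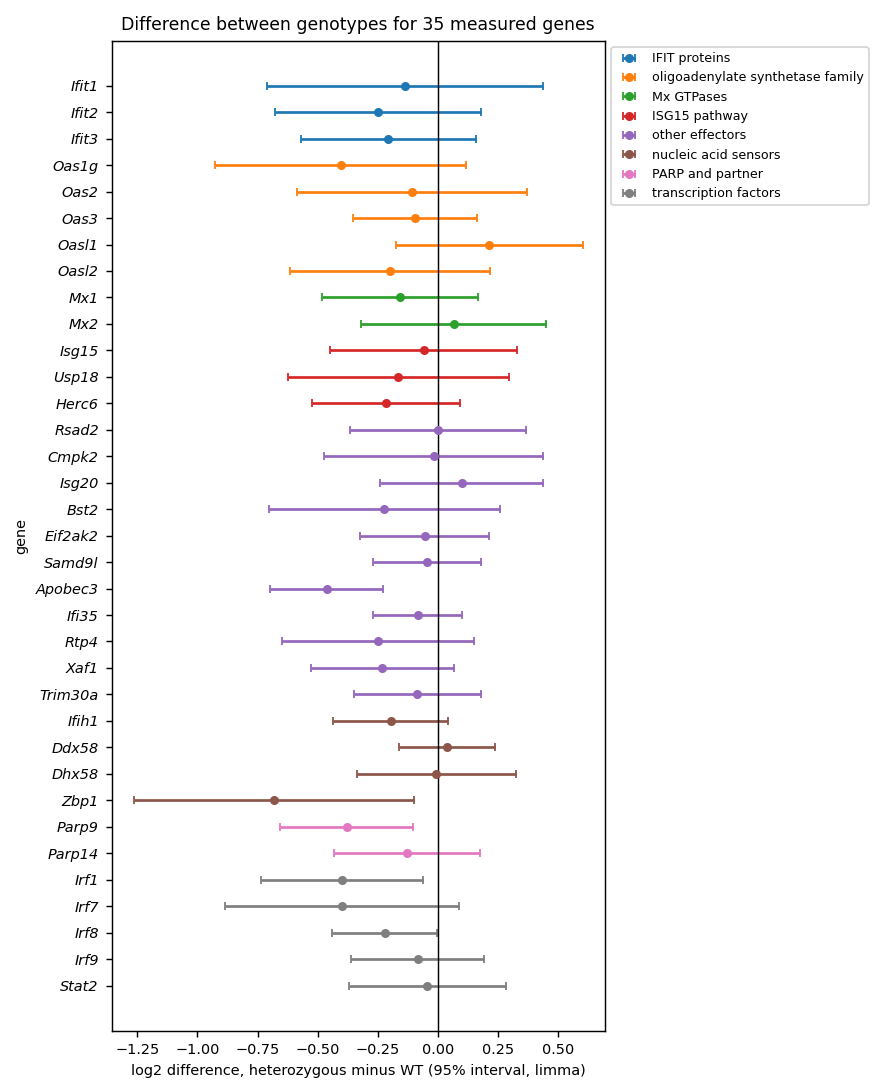
Difference between genotypes in log2 units, heterozygous minus WT, for the 35 measured genes, with 95% intervals from limma, coloured by role. Points lie left of 0 for 30 genes, and the intervals of Apobec3, Parp9, Irf1, Zbp1 and Irf8 do not reach 0, before any adjustment over genes.

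Apobec3, a cytidine deaminase that restricts retroviruses, had the smallest p among the members. Its lowest, median and highest log2 values were 9.24, 9.68 and 10.26 in WT and 9.00, 9.20 and 9.63 in heterozygous mice. All 10 heterozygous livers lay below the WT mean and 6 lay below every WT liver, so the groups overlapped only in part. The difference was -0.46 with an SE of 0.11, a fold of 0.726 (95% interval 0.617 to 0.854). Its unadjusted p from limma was 0.000487, and its adjusted p over all genes was 0.446.

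Parp9, an ADP-ribosyltransferase that partners Dtx3l, ran from 11.45 through a median of 11.85 to 12.26 in WT. In heterozygous livers it ran from 10.72 through 11.59 to 11.86. All 10 heterozygous values lay below the WT mean, and 5 WT livers lay above every heterozygous one. The fold was 0.769 (0.635 to 0.931, adjusted p from limma 0.627). Parp14, a related macrodomain enzyme, had a fold of 0.915 (0.742 to 1.13).

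Among the transcription factors, all 5 members had a lower mean in heterozygous livers, and Irf1 and Irf8 had an unadjusted p under 0.05. Irf1, an activator of interferon gamma targets, had a lowest, median and highest value of 9.80, 10.45 and 11.26 in WT and 9.83, 10.12 and 10.45 in heterozygous mice. The low ends were alike, and the groups parted at the top, where 5 WT livers stood above every heterozygous one. The Irf1 fold was 0.758 (0.600 to 0.958, adjusted p 0.675 with limma). SD was 0.51 in WT and 0.21 in heterozygous mice, a difference of spread that was not tested.

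Irf8, a factor of macrophages, dendritic cells and B cells, spanned 7.51 to 8.56 in WT around a median of 7.92, and 7.42 to 8.05 in heterozygous livers around 7.72. The groups overlapped widely, and the Irf8 fold was 0.858 (0.737 to 0.999). Its p crossed 0.05 in 20 of 28 other settings. It averages 2 probe sets, with differences of -0.33 in the brighter and -0.12 in the dimmer.

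Irf7 ran from 9.99 through 10.70 to 12.10 in WT and from 9.72 through 10.32 to 11.38 in heterozygous mice. Its fold was 0.759, with an interval from 0.541 to 1.06. The difference of -0.40 went to -0.26 without WT 8 and to -0.23 without the 4 arrays of smallest spread. The partners Irf9 and Stat2 had folds of 0.944 (0.780 to 1.14) and 0.970 (0.773 to 1.22). Stat2 averaged 11.89 ± 0.37 in WT and 11.85 ± 0.39 in heterozygous livers (SD, n = 10 each), groups that overlapped almost entirely.

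Among the nucleic acid sensors, Zbp1, a sensor of Z-form nucleic acid linked to necroptosis, had the widest range over mice of all members. Its lowest, median and highest values were 10.36, 11.84 and 13.03 in WT and 10.54, 10.96 and 11.93 in heterozygous livers. As with Irf1, 5 WT livers stood above every heterozygous one, while the lowest liver of all was WT 10. The Zbp1 fold was 0.623 (0.416 to 0.934, adjusted p 0.683 with limma). Ifih1, which encodes the double-stranded RNA sensor MDA5, had a fold of 0.873 (0.740 to 1.03), and 6 heterozygous livers lay below every WT one. Ddx58, which encodes RIG-I, and Dhx58, which encodes LGP2, had folds of 1.03 (0.894 to 1.18) and 0.995 (0.791 to 1.25).

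For the IFIT, oligoadenylate synthetase, Mx and ISG15 genes, the difference between genotypes was smaller than the SD within them. All 3 IFIT genes, whose proteins bind foreign RNA ends, had a lower heterozygous mean, with folds of 0.909 for Ifit1, 0.842 for Ifit2 and 0.867 for Ifit3. The Ifit1 difference of -0.14 went to -0.0091 without WT 8, and the Ifit3 difference of -0.21 to -0.068 without heterozygous 4. Ifit1 spanned 9.10 to 11.12 in WT and 8.84 to 10.88 in heterozygous mice, so both groups covered much the same range. The interval of its fold, 0.611 to 1.35, left room for a change in either direction.

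Of the oligoadenylate synthetase family, which activates RNase L, 4 of 5 measured genes had a lower heterozygous mean. Oas1g had a fold of 0.755 (0.526 to 1.08), Oas2 of 0.928, Oas3 of 0.935 and Oasl2 of 0.871. The Oas1g difference went from -0.40 to -0.096 without the 4 arrays of smallest spread. Oasl1, known in mouse as a repressor of Irf7 translation, stood on the other side with a fold of 1.16 (0.887 to 1.52). Oas2 ranged from 8.50 to 10.47 in WT and from 8.42 to 10.33 in heterozygous livers, without separation.

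The dynamin-like GTPases Mx1 and Mx2 had folds of 0.898 (0.717 to 1.12) and 1.05 (0.802 to 1.36). In the ISG15 pathway, Isg15, a ubiquitin-like modifier, ran from 9.63 through 10.46 to 11.69 in WT and from 9.94 through 10.41 to 10.95 in heterozygous livers. Its fold was 0.960 (0.732 to 1.26), and the 2 highest livers of all were WT. Usp18, which removes Isg15, had a fold of 0.892, and Herc6, the ligase that attaches it in mouse, of 0.860 (0.695 to 1.07). Without the 4 arrays of smallest spread the Herc6 difference went from -0.22 to -0.088.

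Of the 11 other effectors, 9 had a lower mean, and Apobec3 alone had an unadjusted p under 0.05. Rsad2, which encodes viperin, spanned 10.02 to 11.08 in WT and 10.03 to 11.37 in heterozygous livers, with a fold of 1.00 (0.777 to 1.29). Cmpk2, its neighbour in the genome and a nucleotide kinase, had a fold of 0.989 (0.721 to 1.36), and Isg20, an exonuclease, 1.07 (0.846 to 1.36). Bst2, which encodes tetherin, had a fold of 0.857 (0.614 to 1.20), and Rtp4 of 0.841. Without the same 4 arrays their differences went from -0.22 to -0.0145 and from -0.25 to -0.12. Xaf1 had a fold of 0.852, Trim30a of 0.943 and Samd9l of 0.969. Eif2ak2, which encodes the RNA-activated kinase PKR, had a fold of 0.962, and Ifi35 of 0.943.

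**Figure D2:**
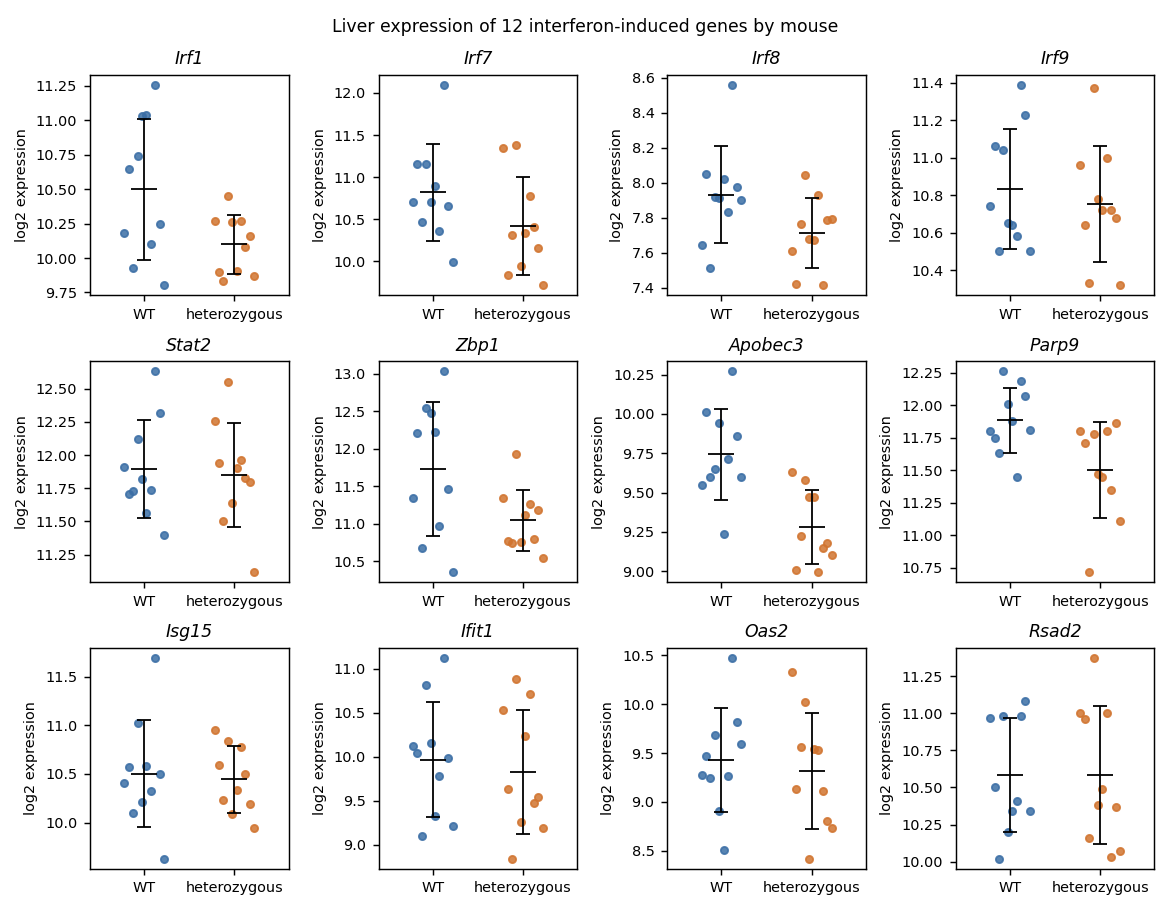
Log2 expression of 12 members in each of 10 WT and 10 heterozygous livers, 1 point per mouse, with the mean and SD in black and a separate vertical axis per gene that does not start at 0. WT livers alone fill the upper range of Irf1 and Zbp1, Apobec3 groups overlap in part, and Stat2, Ifit1, Oas2 and Rsad2 cover like ranges in both genotypes.

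Variation among mice of one genotype was wide for these genes. The SD within genotypes had a median of 0.39 over members, beside 0.23 over all genes, and lay above the median of all genes for 33 of 35. Of all 22180 genes, 11631 averaged under the olfactory receptor level, beside 2 of 35 members. This comparison was not matched for level. The highest liver exceeded the lowest by 1.68-fold for Ifi35 up to 6.37-fold for Zbp1, with a median of 2.77-fold. The mean over members was 10.15 ± 0.32 in WT and 9.99 ± 0.31 in heterozygous livers (log2, SD, n = 10 each).

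Single mice stood high or low across most of the list. WT 8 was the highest of 20 livers for 19 members and lay above its genotype mean for all 35. WT 4, heterozygous 4 and heterozygous 1 lay above theirs for 32, 34 and 33 members. At the low end, heterozygous 10 was the lowest liver for 9 members, WT 10 for 8 and heterozygous 3 for 6. High and low livers thus occurred in both genotypes. Without WT 8, only 2 members, Apobec3 and Parp9, were lower at an unadjusted p under 0.05, with limma p of 0.0504 for Irf1, 0.0532 for Zbp1 and 0.105 for Irf8, and the median difference went from -0.14 to -0.05.

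**Figure D3:**
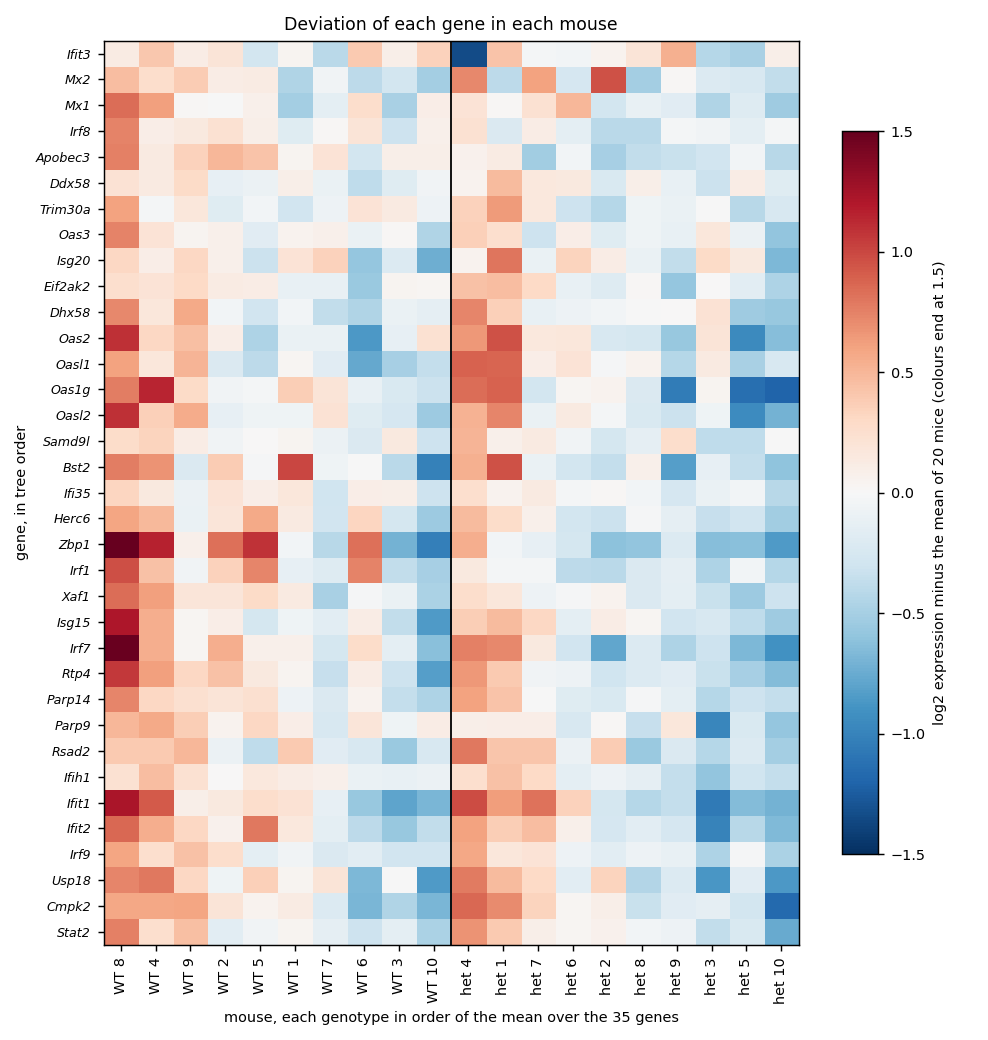
Log2 expression of each gene in each mouse minus the mean of all 20 mice, with WT left and heterozygous right of the line and mice of each genotype ordered by their mean over the 35 genes. Whole columns are red (WT 8, heterozygous 4) or blue (WT 10, heterozygous 10), while Ifit3 in heterozygous 4 is deep blue.

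With each genotype's mean removed, the members moved together across the 20 mice. The median Pearson's r over 595 pairs was 0.60, beside -0.001 over pairs of all genes, and it was 0.63 within WT and 0.64 within heterozygous mice. Over r = 0.5 lay 404 pairs (67.9%), beside 3.13% of pairs of all genes, and 65 pairs lay over 0.8. These are descriptions, since all pairs share the same 20 livers. Pairs of all genes were not matched to the members for level, and many of those genes are dim.

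Average-linkage clustering on these correlations gave no pair of large blocks. Read at 2 clusters, the tree set Ifit3 apart from the other 34 genes, and at 3 it also parted Mx2. Ifit3 had a median r of -0.16 with the other members, at 0.07 in WT and -0.31 in heterozygous mice. Its sign rested on heterozygous 4, the lowest liver for Ifit3 and a high one for most other members, since without that mouse the median r was 0.18 over 19 mice. The closest pairs included Rtp4 with Parp14 (r = 0.95), Ifit1 with Ifit2 (0.94), Irf1 with Zbp1 (0.93), Irf7 with Rtp4 (0.93), Oas2 with Oasl1 (0.92) and Stat2 with Cmpk2 (0.91). Ifit1, Ifit2 and Ifit3 sit side by side in the genome, and r of Ifit3 with Ifit1 was -0.15 over 20 mice and 0.20 without heterozygous 4.

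**Figure D4:**
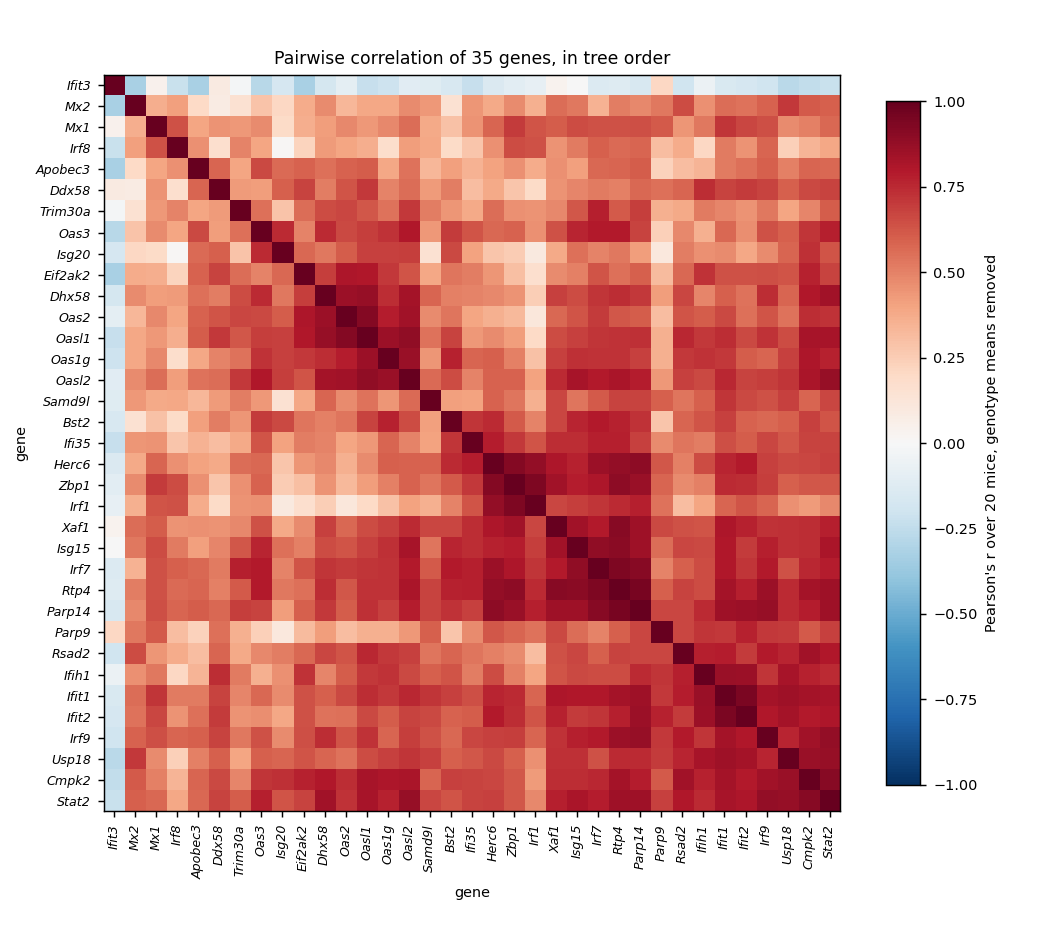
Pearson's r of each pair of the 35 genes over 20 mice after removal of genotype means, in the order of the tree, on a colour scale from -1 to 1. Most of the square is red, Irf1 is pale against Isg20, Oas2 and Oasl1, and the Ifit3 row, whose sign rests on heterozygous 4, is pale to blue.

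Inside the single large block, genes differed in how they followed Irf1 and Stat2, the partner of Irf9. This contrast was chosen after the correlations had been seen. Of 33 other members, 28 correlated more with Stat2 than with Irf1, and 5 more with Irf1, namely Zbp1, Herc6, Irf8, Mx1 and Ifit3, the last with negative r for both. Irf1 itself reached only 0.48 with Stat2. Its r was 0.10 with Isg20, 0.11 with Oas2, 0.17 with Eif2ak2, 0.19 with Ddx58 and 0.20 with Oasl1, whereas those genes had r with Stat2 from 0.63 to 0.82. Zbp1 and Herc6 gave 0.93 and 0.88 with Irf1 and 0.62 and 0.68 with Stat2. Irf7, Rtp4 and Parp14 followed both, with r from 0.71 to 0.77 for Irf1 and from 0.78 to 0.85 for Stat2. With the spread of values over genes on each array, r was 0.46 for Stat2 and -0.13 for Irf1. It was 0.52 for Isg20, 0.45 for Oas2, 0.69 for Eif2ak2, 0.50 for Ddx58 and 0.47 for Oasl1. For Zbp1, Herc6, Irf8 and Mx1 it was -0.06, -0.02, 0.07 and 0.10. Trim30a and Samd9l, which were closer to Stat2, had 0.02 and 0.04. The part of array spread in this contrast was not tested.

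**Figure D5:**
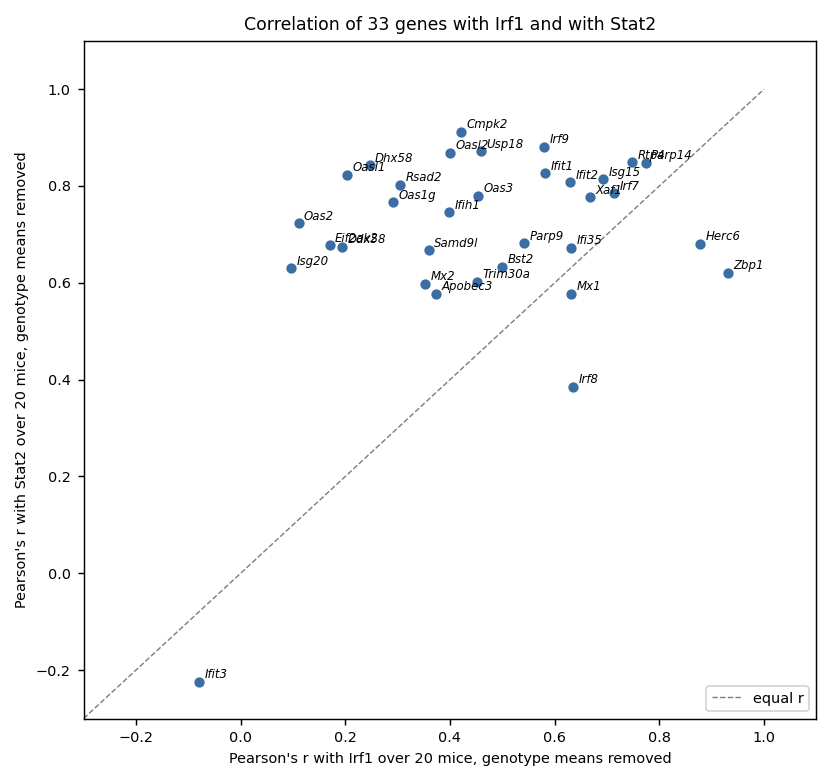
Pearson's r with Irf1 (horizontal) and with Stat2 (vertical) for the 33 other members over 20 mice after removal of genotype means, with a dashed line of equal r. Zbp1, Herc6, Irf8 and Mx1 lie below the line, most genes lie above it, and Ifit3 is alone below 0 on both axes.

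For 6 pairs of members picked by function, r was tested within each genotype, 12 relations in all, with p adjusted over the 12. In 11 of 12 the two-sided permutation p passed after adjustment for r, and likewise for rho. Over all member pairs the median r was 0.63 in WT and 0.64 in heterozygous mice. A pass against an r of 0 therefore does not set these pairs apart from other members. Irf7 with the other members had a median r of 0.66 in WT and 0.79 in heterozygous mice. Irf7 and Isg15 had r of 0.96 and rho of 0.90 in WT (permutation p = 9e-05 and 0.00079, adjusted 0.00108 and 0.00474). In heterozygous mice they had 0.84 and 0.81 (permutation p = 0.00196 and 0.00687, adjusted 0.00392 and 0.0165). Irf9 and Stat2 had r of 0.86 in WT and 0.90 in heterozygous mice, and Rsad2 and Cmpk2 0.80 and 0.86. Irf7 had r of 0.80 with Ifit1 in both, and with Irf1 of 0.80 in WT and 0.71 in heterozygous mice. Irf1 and Irf8 had r of 0.71 in WT (adjusted permutation p = 0.0116) and 0.45 in heterozygous mice (adjusted permutation p = 0.191), and the difference between those was not tested.

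Without the 2 mice farthest from the median of the first gene, r stayed above 0 in all 12 relations but ranged from 0.31 to 0.80. With 8 mice left, 4 relations had an exact permutation p under 0.05, and 0 of 12 passed after adjustment. Leaving out the extremes of one gene narrows its range and so lowers r by itself, so these values do not tell how far a relation rests on those mice. Irf7 with Irf1 in heterozygous mice went to 0.41 (exact permutation p = 0.308), and Irf7 with Isg15 in WT kept 0.80 (exact permutation p = 0.0135).

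Upstream of the members, the ligands were near the dim end of the array. Of 19 measured type I and III interferons, 16 averaged under 6.99, and so did interferon gamma, at 4.67 ± 0.29 in WT and 4.49 ± 0.41 in heterozygous livers (SD, n = 10 each). Ifnb1 averaged 3.99 and 3.95. The ligand list had 1 gene lower and 2 higher at an unadjusted p under 0.05, Ifna13 (fold 0.833), Ifna12 (1.25) and Ifna16 (1.49), all at dim levels. The receptor chains Ifnar1 and Ifnar2 had folds of 1.00 and 0.977. Of 9 receptors and kinases, 8 had a lower mean and 1, the kinase Jak2, an unadjusted p under 0.05 (fold 0.884). Ifnlr1 and Ifngr2, chains of the lambda and gamma receptors, had folds of 0.890 and 0.904.

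Of 5 feedback genes 4 had a lower mean, among them Socs3 with a fold of 0.757, Socs1 with 0.873 and the phosphatase Ptpn6 with 0.950. Of 15 sensing genes 11 had a lower mean. The DNA sensor Aim2 had a fold of 0.839, the kinase Ikbke of 1.20 and the adaptor Mavs of 1.11. Of 54 other interferon-stimulated genes, 44 had a lower mean, 4 of them at an unadjusted p under 0.05, with a median difference of -0.12. Their smallest p belonged to Ifi205 (fold 0.398), Parp11 (0.807) and Mndal (0.724). None of these genes passed after adjustment over all genes.

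The interferon-inducible GTPases and the genes of MHC class I loading and the immunoproteasome had larger median differences in the same livers. All 15 measured interferon-inducible GTPases had a lower heterozygous mean, 8 at an unadjusted p under 0.05, with a median difference of -0.64 beside -0.14 for the members. Gbp2b had a fold of 0.382, Gbp3 of 0.619 and F830016B08Rik of 0.709. Of 18 genes of MHC class I loading and the immunoproteasome, 14 had a lower mean, 9 at that p, with a median of -0.28. Ubd had a fold of 0.404, the peptide transporter chain Tap1 of 0.627 and tapasin, encoded by Tapbp, of 0.831. In these groups 0 genes passed the adjusted threshold with limma, and their difference from the antiviral members was not tested. Unlike those of the members, their medians and counts were not recomputed without WT 8 or without the arrays of smallest spread. How far they rest on those livers was therefore not tested. These lists too were chosen with earlier results of these data known. The mean of the GTPase list, with genotype means removed, correlated at 0.91 with Irf1, 0.90 with Zbp1 and 0.90 with Herc6. Further members followed it as well, with r of 0.82 for Parp14, 0.78 for Rtp4, 0.72 for Irf7 and 0.71 for Ifit1. It correlated at 0.57 with Stat2, 0.47 with Oasl2, 0.20 with Oas2, 0.09 with Isg20 and 0.007 with Ifit3.

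The genes outside the list most like Irf1 over 20 mice, with genotype means removed, were Psmb10 (r = 0.94), AW112010, Gm12250, Calhm6, Tap1, Irgm2, Irgm1, Cxcl9, Gbp3 and Igtp (0.89). Those most like Irf7 were Pld4 (0.87), Parp11, Slfn2, Nlrp3, Rnf213, Acvrl1, Samhd1, Mlkl, Znfx1 and Cxcl11 (0.82). No gene stood in both lists. Psmb10 encodes an immunoproteasome subunit, and Pld4 an endolysosomal exonuclease of myeloid cells.

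Markers of several cell types had lower means in the same heterozygous livers. Of 13 T and NK cell markers, 12 had a lower heterozygous mean, 5 at an unadjusted p under 0.05, and their mean level ran from 6.62 to 7.49 in WT and from 6.35 to 6.95 in heterozygous livers. Averages of 5 of the 13 lay under the olfactory receptor level. All 10 Kupffer cell markers had a lower mean, 2 at that p, and their mean ran from 12.38 to 13.56 in WT and from 11.46 to 13.31 in heterozygous livers. Lower means were found for 8 of 9 plasmacytoid dendritic cell markers (1 at that p), 7 of 9 of recruited macrophages and monocytes (1), 7 of 9 of conventional dendritic cells (0) and 7 of 10 of stellate cells and myofibroblasts (3). They were also found for 8 of 10 neutrophil markers (0), 6 of 10 of sinusoidal endothelium (0) and 6 of 9 of B and plasma cells, where 1 gene was higher at that p. Over all genes, 49.0% had a lower mean and 3.63% were lower at that p. Averages under the olfactory receptor level were held by 5 of 9 plasmacytoid and 5 of 9 conventional dendritic cell markers. The same held for 7 of 10 neutrophil markers and 9 of 9 of B and plasma cells. In RNA of bulk liver tissue, fewer cells of a type and less RNA per cell cannot be told apart. WT 8 was the highest of 20 livers for both marker means as well.

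With genotype means removed, r with the T and NK cell mean ran from -0.14 (Ifit3) to 0.78 (Irf8) over the members, with a median of 0.44, and was 0.11 for Oas1g, 0.15 for Isg20 and 0.25 for Oas2. The r between that mean and Irf1 was 0.74 (rho 0.67, permutation p = 0.00033 and 0.00288, adjusted over 6 relations 0.00198 and 0.0173). It was 0.81 in WT, 0.62 in heterozygous mice and 0.59 over both without 2 mice. For Irf7 the r was 0.61 (rho 0.47, permutation p = 0.00585 and 0.0426, adjusted 0.0175 and 0.0852), at 0.82 in WT and 0.34 in heterozygous mice, and 0.40 without 2 mice. With the Kupffer cell mean r was 0.41 for Irf1 (rho 0.43, permutation p = 0.0414 and 0.0568, adjusted 0.0621 and 0.0852) and 0.56 for Irf7 (rho 0.48, permutation p = 0.0124 and 0.0418, adjusted 0.0249 and 0.0852). Without 2 mice those were 0.31 and 0.39. These relations were chosen after the data had been seen, and the part of cell numbers in the genotype differences was not tested. With the spread of values on each array, r was -0.13 for Irf1 and 0.15 for Irf7, but 0.69 for Eif2ak2 and -0.51 for Ifit3.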

How the data were processed

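RNA from 20 livers, 10 per genotype, was hybridised to 1 array each. Affymetrix Power Tools was used by the authors to summarise them (GC correction, intensity scaling and robust multi-array averaging for core genes), and the deposited table holds log2 values. The version, genome build and annotation release for the mouse arrays are not given in the sources used here, so probe sets carry no coordinates. Of 41345 probe sets, 23521 had 1 gene in the platform annotation, 1820 several and 16004 no gene name. Only those with 1 gene were used, averaged per symbol (1082 of 22180 genes had several), with no filter on dim genes, and 23328 matched RefSeq by gene identifier. No arrays were identical.

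Genotypes were compared with limma 3.58.1 in R 4.3.3, as heterozygous minus WT, over all genes, calling genes at a Benjamini-Hochberg adjusted p under 0.05. No p was adjusted over the members alone. Correlations used 100000 permutations of one gene among mice, within genotype where both were pooled. Python 3.11.15, numpy 2.4.6, scipy 1.17.1 and pandas 2.3.3 were used. The code was tested on simulated data. The limma p-values set differences of means against the spread between these mice, and the permutation p-values test association among them.

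Named were all members, Bnc2, up to 3 genes of the smallest p in each pathway list with fixed ligands and receptors, and the 10 genes most like Irf7 and Irf1. The members and lists were chosen with earlier results of these data known. Alternatives were quantile normalization, centring, the brightest probe set, a filter at the median level, another prior, weights per array, a replicate block, and leaving out each mouse or the 4 arrays of smallest spread. With genotype means removed, same-numbered mice of both genotypes correlated from -0.17 to 0.17 over genes. The heterozygous mouse closest to a WT mouse shared its number only for numbers 3 and 10. These values gave no clear sign of pairing by number and do not exclude it.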

Additional observations from a re-analysis of the deposited data

Results flagged for a closer look

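Among 70 groups of 10 mice (35 members in each genotype), 2 held a mouse far from the others by Dixon's criterion, which chance passes in about 1 of 20 groups. For Eif2ak2 in WT, WT 6 lay at 11.02 with the nearest other mouse at 11.47 and the far end at 11.88, a ratio of gap to range of 0.523. For Irf8 in WT, WT 8 lay at 8.56 with the nearest at 8.05 and the far end at 7.51, a ratio of 0.489. WT 6 is among the 4 arrays of smallest spread, and WT 8 had the highest values for 19 members.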

How the results depend on the processing

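Over 28 other settings no member and no gene passed the adjusted threshold with limma, and the smallest adjusted p of a member was 0.248. Apobec3 and Parp9 kept an unadjusted p under 0.05 in all 28, Irf1 and Zbp1 in 26 and Irf8 in 8. Without the 4 arrays of smallest spread, 2 members were lower at that p and the others of the 5 were not (0.145 for Irf1 and 0.156 for Zbp1). Without 1 mouse the count ran from 2 (WT 8 left out) to 7 (heterozygous 1 left out), members with a lower mean from 25 to 32, their median difference from -0.21 to -0.05 and the median r from 0.54 to 0.63. The replicate block gave 5 members lower at that p, 30 with a lower mean and a median r of 0.55. The median r of Ifit3 with the other members turned from -0.16 to 0.18 without heterozygous 4, chosen after the data had been seen. Of the 12 tested correlations, 0 passed without 2 mice, and 11 passed with centring and with quantile normalization.

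Of 35 members, 23 never changed sign. Without the 4 arrays the difference turned positive for Ifit1 (0.00614), Mx1 (0.0039), Isg15 (0.11), Cmpk2 (0.13), Eif2ak2 (0.017), Ifi35 (0.0074), Dhx58 (0.028) and Stat2 (0.041). Centring turned Cmpk2 (0.000774) and Dhx58 (0.010), and array weights turned Dhx58 (0.014). Without 1 mouse, differences ran from -0.22 to 0.0092 for Oas2, from -0.037 to 0.13 for Mx2, from -0.16 to 0.072 for Isg15, from -0.086 to 0.063 for Rsad2 and from -0.11 to 0.11 for Cmpk2. They ran from -0.12 to 0.0067 for Eif2ak2, from -0.013 to 0.075 for Ddx58, from -0.088 to 0.072 for Dhx58 and from -0.12 to 0.037 for Stat2. The cause was not tested. Members near the olfactory receptor level, Mx1 and Oas3, are limited by signal over background.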
